A study of Mus musculus with 36 samples.

Results

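The livers compared here were collected at ZT0, the hour of lights on and of the start of the daily hypoxic window, from mice under chronic intermittent hypoxia (IH) and from control mice. The comparison takes in 6 of the 36 libraries of the series, 3 IH and 3 control, each from a different mouse, chosen by the time point in their labels. All were wild-type male C57BL/6JRj mice of 16 weeks, fed chow without restriction and kept for 4 weeks in their condition. IH mice received 60 cycles per hour of hypoxia and room air with a nadir of 5% inspired oxygen from ZT0 to ZT8 each day, and control mice received matched cycles of air alone. At ZT0 the previous window had been over for 16 h, and the sources used here do not state whether the first cycles of the new day had begun when a mouse was sampled. The model exposes the whole animal, so effects on the liver itself and effects through feeding, activity or hormones cannot be told apart in these data.

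Liver gene expression follows the light-dark cycle and the feeding that comes with it. The transcription factors CLOCK and BMAL1 (Arntl) drive Per, Cry and Nr1d genes, whose products in turn repress CLOCK, BMAL1 or their genes, and outputs such as Dbp follow. Lipid synthesis is a nightly, fed-state programme controlled by the SREBP transcription factors, of which Srebf2 mainly serves cholesterol synthesis and Srebf1 fatty acid synthesis. Hypoxia acts on a faster scale through HIF, which is degraded again once oxygen returns. ZT0 is the end of the night, when a nocturnal mouse has done most of its feeding.

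Expression was given as FPKM, which is fragments scaled to transcript length and to the mapped fragments of the library, and was compared as log2(FPKM + 1), a scale that understates the differences of genes with low values. A log2 difference is IH minus control, and a gene was called at an unadjusted P of 0.01 or less in a limma test across the 13215 genes that averaged 0.1 FPKM or more over the series. Summed FPKM ranged from 567374 to 605730 per library, and any 2 of the 6 libraries correlated across genes with r from 0.974 to 0.993. Read totals were not used here, but the steps between low values placed the libraries between 0.835 and 1.41 times the depth of control replicate 1. The deepest was IH replicate 2.

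IH replicate 2 stood apart from the other libraries in genes of the acute-phase response, the set of plasma and stress proteins that hepatocytes make when inflammatory cytokines reach them. Saa1, a serum amyloid A protein, was at 22865 FPKM in IH replicate 2 against 111 and 79.7 in IH replicates 1 and 3. In control replicates 1, 2 and 3 it was at 49.8, 382 and 1235. Saa1 thus spread widely within control as well, and the 2 other IH libraries lay among the control libraries. Lcn2, which binds bacterial iron carriers, was at 1436 FPKM in IH replicate 2 and between 4.08 and 81.5 in the other 5 libraries. The metallothionein gene Mt2 was at 1087 FPKM there and between 1.83 and 19.6 elsewhere, while albumin (Alb) differed little, with 26459 FPKM in that library and 24838 to 30774 in the others. Over the 30 acute-phase genes tested, the median log2 value of IH replicate 2 was 1.95 above the mean of the other IH libraries, and over all genes tested it was 0.06 below. The acute-phase genes had a median difference of 0.40 between IH and control with all 6 libraries and of -0.27 without IH replicate 2. A list this short could be expected to hold few or no called genes. Of the 30, 0 were called in either fit, against 0.81% of all genes with all 6 libraries and 0.545% without IH replicate 2. Most results below that moved without this library are given both ways.

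**Figure D1:**
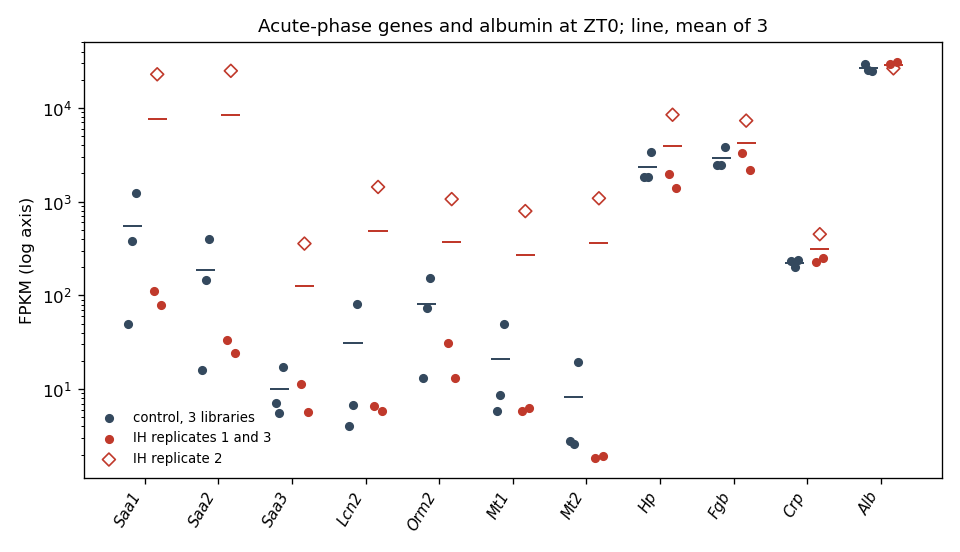
FPKM (log axis) of 10 acute-phase genes and of albumin (Alb) in each ZT0 library, with control in blue, IH replicates 1 and 3 as red dots, IH replicate 2 as an open diamond, and a line at the mean of each group of 3. IH replicate 2 lies above every other library for all 10 acute-phase genes, as for Saa1 at 22865 FPKM, and control replicates are themselves far apart for Saa1, from 49.8 to 1235.

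Fewer genes were called at ZT0 than at any other time point but ZT12. Of the 13215 genes, 53 were called higher in IH (0.401%) and 54 lower (0.409%), 107 in all (0.81%), where a threshold of 0.01 passes about 132 genes with no difference at all. The count was 651 genes (4.93%) for an unadjusted P below 0.05. With Benjamini-Hochberg adjustment of the limma test, 0 genes (0%) passed 0.05, and the smallest adjusted p, 0.883, was shared by all 107 called genes. The genes named below as called are therefore those that stood out most, each at an unadjusted P, and none passed the adjustment. The same test called 1200 genes higher (9.08%) and 387 lower (2.93%) at ZT4, within the hypoxic window, and 216 (1.63%) and 121 (0.916%) at ZT8, at its end. In the hypoxia-free hours it called 29 (0.219%) and 28 (0.212%) at ZT12, 158 (1.2%) and 55 (0.416%) at ZT16, and 211 (1.6%) and 86 (0.651%) at ZT20. Among 9813 genes averaging 1 FPKM or more, 9235 (94.1%) had a 95% confidence interval at ZT0 that lay within -1 and 1 on the log2 scale. Without IH replicate 2, 46 genes were called higher and 26 lower, and 42 of these 72 were among the 107. Without IH replicate 1 there were 205, without IH replicate 3 208, without control replicate 1 70 and without control replicate 3 63.

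**Figure D2:**
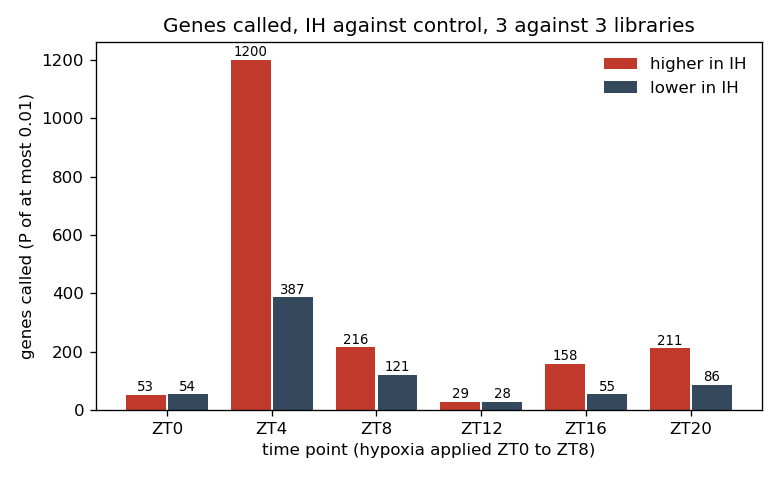
Number of genes called higher (red) and lower (blue) in IH at each of the 6 time points, at a P of 0.01 or less in limma on 3 against 3 libraries, with the count over each bar. ZT0, with 53 higher and 54 lower, is near ZT12 (29 and 28) and far from ZT4 (1200 and 387).

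Genes of cholesterol synthesis were among those called higher in IH. Of its 22 genes, 3 were called higher in IH (Lss, Fdps and Idi1), against 0.401% of all genes, and 0 lower. A difference above 0 was found in 21, against 44.4% of all genes. The median difference was 0.44, against -0.02 over all genes tested. For 8 of the 22, all 3 IH livers lay above all 3 control livers, a pattern seen in 4.59% of all genes, and for 0 of them below (6.21% of all genes). Lss, which closes the sterol ring to lanosterol, was at 14.3, 21.2 and 18.1 FPKM in IH replicates 1 to 3 and at 10.5, 9.44 and 10.2 in control. The lowest IH liver was above the highest control liver, and the mean was 17.9 ± 3.41 FPKM in IH and 10.0 ± 0.547 in control (SD, n = 3 each). Its log2 difference was 0.76 (SE 0.14) with an unadjusted P of 0.00135.

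Enzymes of earlier steps lay in the same direction. Idi1, which isomerizes the first isoprene unit, was at 132, 159 and 134 FPKM in IH and at 108, 86.0 and 103 in control, a log2 difference of 0.52 (SE 0.13). Fdps, which joins isoprene units to farnesyl diphosphate, was at 336, 521 and 373 FPKM in IH and at 199, 233 and 260 in control, a log2 difference of 0.81 (SE 0.19). In all 3 the groups did not overlap, and IH replicate 2 was the highest library. Without it the log2 differences were 0.43 for Idi1, 0.63 for Fdps and 0.64 for Lss, and Idi1 no longer passed the threshold, with a P of 0.0136. The median of the 22 genes was then 0.35. The calls depended on how the spread was estimated and on single livers, with 1 of the 22 called (Lss) when the spread was taken from all 36 libraries, 1 without control replicate 2, 2 without control replicate 1 and 6 without IH replicate 1, while the median stayed between 0.33 and 0.53.

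Other members missed the threshold. Nsdhl, a sterol dehydrogenase, did so narrowly with a log2 difference of 0.54 and a P of 0.0107, and so did squalene epoxidase (Sqle) with 0.68 and 0.0132. Insig1, which holds SREBP in the endoplasmic reticulum and is itself an SREBP target, was at 170 to 232 FPKM in IH and 116 to 157 in control, with a P of 0.0133. Srebf2, at 12.6 to 15.5 FPKM in IH and 12.3 to 17.2 in control, overlapped between the groups, with a log2 difference of -0.05 (SE 0.14). The list's median difference was -0.04 at ZT4, 0.21 at ZT8, 0.02 at ZT12, 0.33 at ZT16 and 0.47 at ZT20. ZT16, ZT20 and ZT0 thus had the larger values. At ZT20 8 of its genes were called higher, against 1.6% of all genes, and at ZT16 4, against 1.2%. At ZT4 1 was called higher and 1 lower, against 9.08% and 2.93% of all genes.

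Fatty acid synthesis showed the same direction. Of its 21 genes 3 were called higher in IH (Pnpla3, Gpam and Acly), against 0.401% of all genes, and 0 lower. A difference above 0 was found in 17 (44.4% of all genes), and in 9 all IH livers lay above all control livers (4.59% of all genes). The median difference was 0.41, and 0.46 without IH replicate 2, the library whose acute-phase genes stood apart. Pnpla3, a lipase of lipid droplets, had the smallest P of the whole comparison. It was at 1.90, 1.21 and 1.42 FPKM in IH and at 0.170, 0.399 and 0.211 in control, so every control liver was below 0.4 FPKM and every IH liver above 1.2. The means stood in a ratio of 5.80 at a low level, and the log2 difference was 0.99 (SE 0.12) with an unadjusted P of 0.000107, and 1.08 without IH replicate 2. Acly, which splits citrate to cytosolic acetyl-CoA, was at 84.1, 87.8 and 104 FPKM in IH and at 47.0, 59.1 and 68.7 in control, a log2 difference of 0.66 (SE 0.16). Gpam, which starts triglyceride assembly at the mitochondrial outer membrane, was at 13.5, 15.9 and 13.5 FPKM in IH and at 8.35, 10.5 and 10.0 in control, a log2 difference of 0.53 (SE 0.11). The groups were apart for both genes. Without IH replicate 2 Acly just missed the threshold, with a P of 0.0108. With the spread taken from all 36 libraries 0 of the 21 genes were called, with a P of 0.0270 for Pnpla3, and without control replicate 1 there was 1, while the median stayed between 0.26 and 0.47.

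The remaining lipogenic genes gave less separation. Fasn, fatty acid synthase, was at 102, 65.4 and 67.4 FPKM in IH and at 34.1, 61.9 and 50.8 in control, with a log2 difference of 0.68 (SE 0.26) and a P of 0.0371. Elovl6 (0.49), Thrsp (1.01) and Acaca (0.41) also had all IH livers above all control livers without reaching the threshold, with P from 0.0109 to 0.0360. Thrsp, a lipogenic gene that follows carbohydrate feeding, nearly touched between the groups, at 175 FPKM in the lowest IH and 174 in the highest control liver. Scd1, the main desaturase, overlapped, at 1285 to 2016 FPKM in IH and 561 to 1374 in control. Srebf1, at 40.1 to 67.3 FPKM in IH and 46.4 to 74.4 in control, differed by -0.16 (SE 0.24). As with Srebf2, RNA of the regulator overlapped between the groups, and the cleaved, active protein is not measured by RNA. The list's median at the other time points was 0.39 at ZT4, 0.13 at ZT8, 0.10 at ZT12, 0.33 at ZT16 and 0.36 at ZT20.

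**Figure D3:**
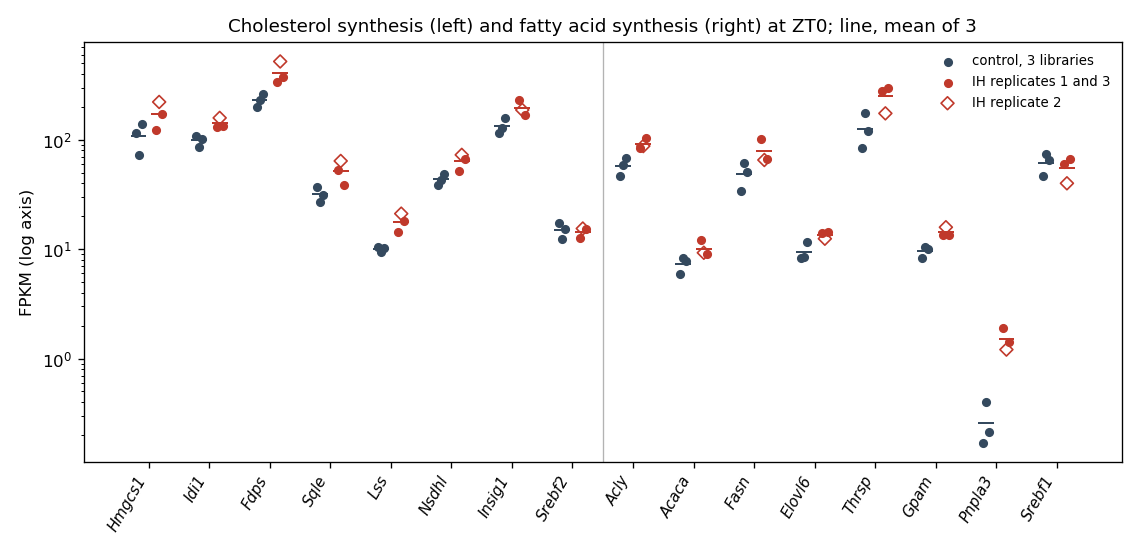
FPKM (log axis) in each ZT0 library of 8 genes of cholesterol synthesis and its control (left of the line) and 8 of fatty acid synthesis (right), with control in blue, IH replicates 1 and 3 as red dots, IH replicate 2 as an open diamond and a line at each mean of 3. The IH points lie above the control points for Idi1, Fdps, Lss, Acly, Gpam and Pnpla3, and overlap them for Hmgcs1, Srebf2 and Srebf1.

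SREBP proteins bind sterol regulatory elements near transcription starts together with NF-Y, which recognizes the CCAAT box, so the sequence before the start of the called lipid genes is shown, with and without a match. The stretches were taken from RefSeq promoter windows (GRCm38.p6) of 300 bases, 250 before the start and 50 after it, and 17 of the 22 cholesterol genes and 17 of the 21 fatty acid genes had an entry. Fdps had none. Each is printed 5′ to 3′ on the gene's own strand, for the 100 bases that end just before the start (Hmgcs1 from -182 to -83), with the CCAAT box in either orientation (CCAAT or ATTGG) and the element TCACNCCAC in capitals. The 2 motifs do not overlap in any of them.
Lss, chr10:76531505-76531604, plus strand: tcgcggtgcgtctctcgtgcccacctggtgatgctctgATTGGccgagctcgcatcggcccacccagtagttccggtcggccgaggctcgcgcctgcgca
Idi1, chr13:8885506-8885605, plus strand: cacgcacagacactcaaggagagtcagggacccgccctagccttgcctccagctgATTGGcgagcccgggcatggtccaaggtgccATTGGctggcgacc
Hmgcs1, chr13:119690169-119690268, plus strand: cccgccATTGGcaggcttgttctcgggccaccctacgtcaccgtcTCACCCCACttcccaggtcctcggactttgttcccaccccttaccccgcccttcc
Pnpla3, chr15:84167716-84167815, plus strand: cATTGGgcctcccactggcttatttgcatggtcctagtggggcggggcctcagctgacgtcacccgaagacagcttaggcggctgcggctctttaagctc
Gpam, first window, chr19:55127239-55127338, minus strand: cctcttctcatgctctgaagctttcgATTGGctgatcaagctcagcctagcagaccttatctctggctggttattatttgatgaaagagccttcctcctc
Gpam, second window, chr19:55099478-55099577, minus strand: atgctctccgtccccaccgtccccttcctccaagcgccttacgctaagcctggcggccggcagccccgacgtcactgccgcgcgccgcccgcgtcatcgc
Acly, chr11:100528001-100528100, minus strand: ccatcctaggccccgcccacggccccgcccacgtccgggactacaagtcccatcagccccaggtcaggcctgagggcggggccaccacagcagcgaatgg
In these 100 bases neither Acly nor the second window of Gpam holds a motif.
A CCAAT box in either orientation stood in 16 of the 20 windows of the cholesterol list (80%) and in 13 of the 21 windows of the fatty acid list (61.9%), where some genes have more than 1 window, against 37.4% of all 32851 windows. TCACNCCAC stood in 1 cholesterol window, that of Hmgcs1, and in 1.24% of all windows. Hmgcs1, the HMG-CoA synthase at the start of the pathway, is shown as the member that holds it. It was not called, at 124, 222 and 174 FPKM in IH and 116, 72.7 and 138 in control, with a P of 0.0592. These are matches of letters in a short window and say nothing of binding in these livers.

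Genes of fat use did not share this direction. Of the 34 genes of fatty acid oxidation and ketogenesis tested, 4 had a difference above 0, against 44.4% of all genes, and the median was -0.24, or -0.15 without IH replicate 2. In 4 of them all IH livers lay below all control livers (6.21% of all genes), and 0 were called lower (0.409% of all genes). Cpt2, which completes carnitine-dependent entry of fatty acids into mitochondria, was at 62.7, 51.6 and 55.9 FPKM in IH and at 85.4, 64.3 and 68.6 in control, with a log2 difference of -0.35 (SE 0.13) and a P of 0.0385. The single called member was Fgf21, the fasting hormone of the liver, which was higher, where 0.401% of all genes were called higher. It was at 1.05, 1.28 and 1.18 FPKM in IH and at 0.195, 0.493 and 0.701 in control. IH livers were alike and control livers spread below them, with a log2 difference of 0.58 (SE 0.13), and without IH replicate 2 its P was 0.0130.

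Of the 24 clock genes tested, 5 listed as the positive arm, 10 of the negative arm and 9 outputs, 0 were called, against 0.81% of all genes. Lists this short could be expected to hold few or none. Over the alternatives at most 2 of the negative arm were called, with the spread taken from all 36 libraries. Of the outputs it was at most 2, without control replicate 3, and of the positive arm 0. Nr1d1 (REV-ERBα), a repressor whose transcript climbs steeply in the early light phase, was at 3.56, 8.24 and 2.74 FPKM in IH and at 1.64, 0.787 and 1.88 in control. All IH livers were above all control livers, with IH replicate 2 the highest, and the log2 difference was 1.18 (SE 0.36) with a P of 0.0143, or 0.79 with a P of 0.0148 without that library. Control livers averaged 1.39 FPKM at ZT20 and 39.1 at ZT4, and IH livers 0.691 and 55.1. The difference at ZT0 was thus small beside the climb that followed it in both groups. At ZT20 the difference had the opposite sign, -0.50 with a P of 0.000966. Its paralog Nr1d2 overlapped at ZT0, at 1.45, 3.43 and 3.29 FPKM in IH and 1.40, 1.09 and 1.46 in control, with a P of 0.0314.

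Hlf, a PAR bZIP output factor, was at 5.13, 3.48 and 4.15 FPKM in IH and at 7.79, 6.33 and 5.46 in control, a log2 difference of -0.52 (SE 0.16, P of 0.0159). Dbp, of the same family and near its daily trough, was at 0.0637 to 0.140 FPKM in IH and 0.215 to 0.538 in control, a log2 difference of -0.27 (P of 0.0208). Usp2, a deubiquitinase under clock control, was at 0.274 to 0.822 FPKM in IH and 0.889 to 2.09 in control, a log2 difference of -0.66 (P of 0.0168). For these 3 of the 9 output genes tested all IH livers lay below all control livers, a pattern seen in 6.21% of all genes. In each of the 3, IH replicate 2 was the lowest library. Of the 9 output genes 2 had a difference above 0, against 44.4% of all genes. The median of the 9 was -0.24, and -0.17 without IH replicate 2. It was -0.52 on log2(FPKM + 0.1).

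Within the core loop Arntl and Clock differed little, while Per2 and Cry1 had larger but uncertain differences. Arntl was at 9.60 to 11.6 FPKM in IH and 9.71 to 12.3 in control, a log2 difference of -0.04 (95% interval -0.32 to 0.25 by limma). Clock differed by -0.06, Per2 by -0.55 (P of 0.0872) and Cry1 by -0.46 (P of 0.0624), all with overlapping groups. Per1 was spread in both groups, from 0.643 to 4.18 FPKM in IH and from 1.15 to 4.45 in control. The 5 genes tested that were listed as the positive arm were Arntl, Clock, Npas2, Rora and Nfil3, the last itself a repressor. Their median was -0.04, and above 0 without IH replicate 1, IH replicate 2 or control replicate 1. The negative arm of 10 had a median of -0.02. Mice of a group were sampled at a single nominal time, and for transcripts this steep the hour of sampling and the state of the clock cannot be told apart.

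**Figure D4:**
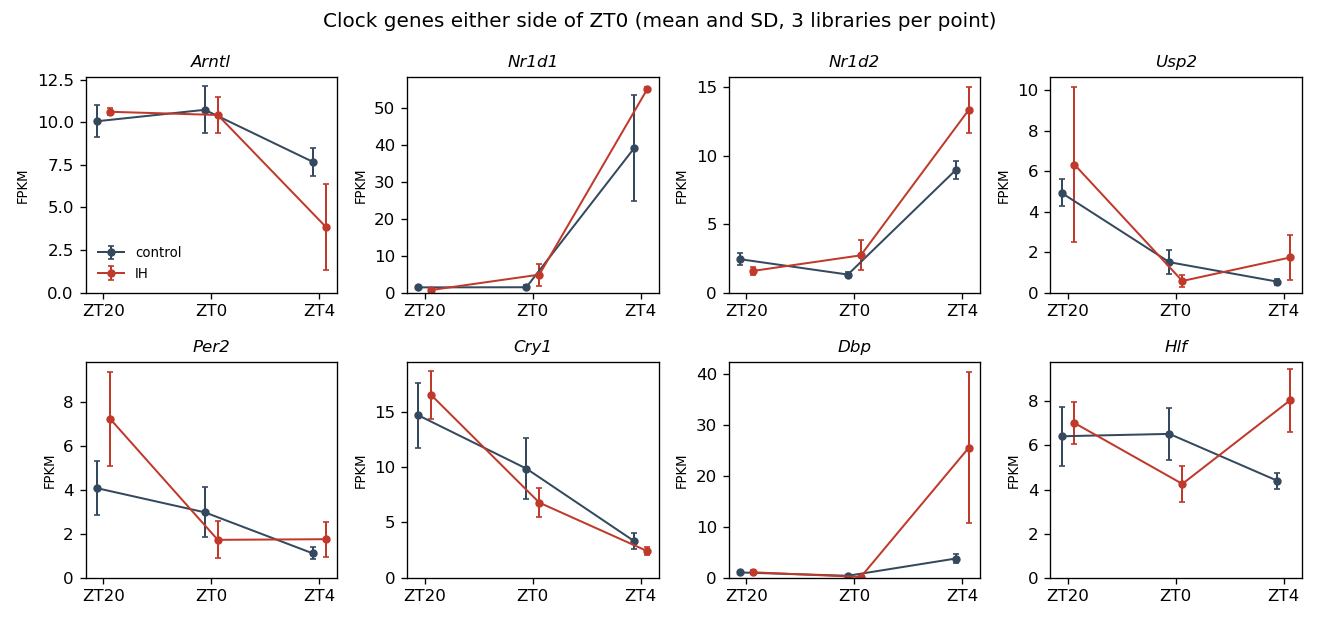
Mean and SD of FPKM (3 libraries per point) of 8 clock genes at ZT20, ZT0 and ZT4 in control (blue) and IH (red), each axis from 0. At ZT0 Nr1d1 averages 4.85 FPKM in IH and 1.44 in control and then reaches 55.1 and 39.1 at ZT4, Hlf averages 4.25 and 6.53 at ZT0, and Arntl 10.4 and 10.7.

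Most metabolic and oxygen-dependent groups held no called gene. Of all genes 0.81% were called, so lists this short could be expected to hold few or none. Of the 26 HIF target genes tested 0 were called, with a median of 0.04. Adm, adrenomedullin, was the member with the smallest P (0.0373), at 0.992, 0.698 and 1.16 FPKM in IH and 0.695, 0.558 and 0.625 in control. Of the 8 HIF subunits and oxygen sensors 0 were called, and Egln3, itself induced by HIF, was at 5.40 to 7.79 FPKM in IH and 7.30 to 8.09 in control. Gluconeogenesis (14 genes), glycogen (21), glycolysis (12), the TCA cycle (18), the respiratory chain (83) and the pyruvate dehydrogenase complex (10) had 0 called genes and medians between -0.01 and 0.08. G6pc, which releases glucose from glucose 6-phosphate, ranged from 146 to 393 FPKM in IH and from 78.0 to 200 in control. Its spread among mice of a group overlapped the difference between the groups. Cox6a1, a subunit of cytochrome c oxidase, was at 465 to 586 FPKM in IH and 503 to 550 in control, a log2 difference of 0.02 (95% interval -0.31 to 0.34 by limma). Idh3a (-0.07), Ldha (-0.02), Pygl (0.06), Gys2 (-0.13), Fbp1 (-0.06), Pck1 (0.43), Pdhb (0.20) and Creb1 (-0.07) were not called either, with P from 0.179 to 0.939. For Pck1 the SE was 0.70, so a sizeable difference in it was not detectable in 3 against 3 livers.

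Genes that respond to hormones varied among mice. Igfbp1, which binds insulin-like growth factors and rises in fasting, was at 21.3, 234 and 129 FPKM in IH and at 4.86, 5.23 and 27.3 in control. The groups overlapped in 1 pair of livers, and the log2 difference was 3.12 (SE 0.99, P of 0.0172), or 2.41 without IH replicate 2. Tfrc, the transferrin receptor, was called higher on a small but even difference, at 3.43, 3.22 and 3.54 FPKM in IH and 2.47, 2.47 and 2.49 in control (log2 difference 0.34, SE 0.08). Of the 15 iron genes it was the 1 called higher and 0 were called lower, against 0.401% and 0.409% of all genes. Rbm3, a cold-inducible RNA-binding protein, was at 13.6 to 22.5 FPKM in IH and 6.76 to 11.9 in control (P of 0.0181). Of the 25 genes of the unfolded protein response 23 had a difference above 0, against 44.4% of all genes, and 0 were called. The list's median was 0.34, and 0.08 without IH replicate 2. The median of this list was 0.85 higher in IH replicate 2 than in the other IH libraries. The NF-kappaB list (18 genes) likewise went from a median of 0.11 to -0.05 and the 17 glucocorticoid targets from 0.06 to -0.12 without that library, with 0 called in each. The 41 interferon-stimulated genes had 4 differences above 0 (44.4% of all genes) and a median of -0.20, which was 0.09 without control replicate 1. The 21 drug-metabolizing P450 genes and sensors had a median of -0.22, or -0.08 without IH replicate 2. Again 0 were called in each, against 0.81% of all genes.

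**Figure D5:**
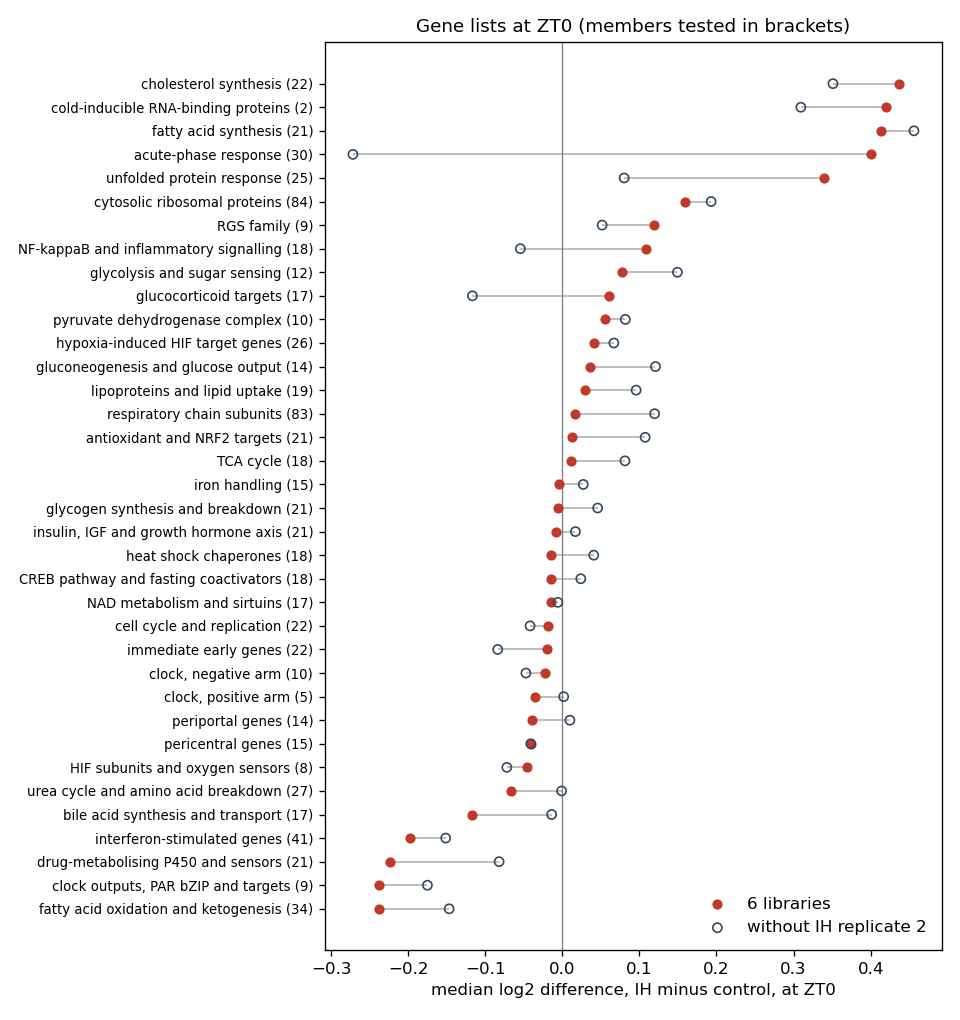
Median log2 difference between IH and control at ZT0 over the tested genes of each of 36 lists (number in brackets), with all 6 libraries (red) and without IH replicate 2 (open). Cholesterol and fatty acid synthesis stay at 0.35 and 0.46 without that library, while the acute-phase list moves from 0.40 to -0.27 and the unfolded protein response from 0.34 to 0.08.

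Of the 84 cytosolic ribosomal protein genes and close paralogs tested, 4 were called higher in IH (Rpl12, Rpl3, Rpl39 and Rpl22l1), against 0.401% of all genes, and 0 lower. A difference above 0 was found in 80, against 44.4% of all genes, with a median of 0.16, or 0.19 without IH replicate 2. In 42 all IH livers lay above all control livers (4.59% of all genes) and in 0 below (6.21%). Rpl12 was at 354, 346 and 310 FPKM in IH and at 250, 252 and 263 in control, a log2 difference of 0.40 (SE 0.10). Rpl22l1, a paralog of Rpl22, was at 46.3, 88.5 and 62.1 FPKM in IH and at 37.2, 29.3 and 23.4 in control, a log2 difference of 1.08 (SE 0.26). None of the 4 passed the threshold without IH replicate 2 or without control replicate 2, and leaving out IH replicate 1, control replicate 1 or control replicate 3 left 1 call in the list each time and leaving out IH replicate 3 left 2. The list's median difference was 0.19 at ZT4, 0.16 at ZT8, -0.31 at ZT12, 0.12 at ZT16 and 0.16 at ZT20. At ZT8 17 of its genes were called higher, against 1.63% of all genes, and at ZT20 11, against 1.6%. At ZT4 and at ZT16 1 was called higher, against 9.08% and 1.2%, and at ZT12 0, against 0.219%. Ribosomal protein genes have many near-identical processed pseudogenes between which reads can be split, so their values are uncertain.

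Beyond these lists, the genes with the smallest P that were higher in IH were a mixed group. Chrna4, a neuronal nicotinic receptor subunit, had the largest difference of the called genes. It was at 8.30, 9.17 and 6.54 FPKM in IH and at 0.322, 1.95 and 1.57 in control, a ratio of means of 6.25 and a log2 difference of 2.05 (SE 0.31). The β-tubulin genes Tubb2a, at 163, 156 and 165 FPKM in IH and 107, 108 and 116 in control, and Tubb2b, at 22.3 to 23.9 and 15.4 to 17.1, were separated with little spread. They are close paralogs near each other on chromosome 13, and reads shared between them could make their values move together. Txnl1, a thioredoxin-like protein, was at 32.1 to 36.3 FPKM in IH and 25.1 to 26.1 in control, a log2 difference of 0.42 (SE 0.08). Ddx39, an RNA helicase, was at 8.99 to 9.63 FPKM and 6.74 to 7.01, and the selenoprotein gene Selm at 2.23 to 2.27 and 1.38 to 1.61. Gm25212 and Gm22291, with log2 differences of 1.68 and 1.63, are copies of a ribosomal RNA gene with identical values in all libraries but IH replicate 2. Ribosomal RNA is largely removed by poly-A selection, so they are uncertain and count as 1 measurement.

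Among the 12 genes with the smallest P that were lower in IH, the largest difference was that of Tsc22d1, a transcriptional regulator induced by TGF-β. It was at 27.3, 17.2 and 28.7 FPKM in IH and at 73.6, 52.3 and 41.4 in control, a log2 difference of -1.16 (SE 0.26), and -0.93 with a P of 0.00847 without IH replicate 2 (P of 0.0116 without control replicate 2). Fam20b, a xylosylkinase of proteoglycan synthesis, was at 3.37, 2.76 and 3.11 FPKM in IH and at 4.53, 4.73 and 4.56 in control (log2 difference -0.46, SE 0.09). Slc12a7, a potassium-chloride cotransporter, was at 10.0 to 13.9 FPKM in IH and 17.4 to 19.0 in control (-0.55). Rtn4rl1 was at 2.94 to 4.10 FPKM and 5.11 to 7.33 (-0.69), Olig1 at 0.723 to 1.22 and 1.70 to 2.28 (-0.58), and the Toll-like receptor gene Tlr12 at 0.781 to 0.828 and 1.18 to 1.71 (-0.45). The other 6 of the 12 were Hist1h2bh, Mettl8, Pxylp1, 2810459M11Rik, Ccdc85c and Lima1, with differences from -0.46 to -0.39. Without IH replicate 2, Rtn4rl1, Hist1h2bh, Pxylp1, Ccdc85c and Lima1 were not called. In all 107 called genes the groups did not overlap, as in 4.59% of all genes with IH above and 6.21% with IH below. The calls came from the same 6 libraries, so this adds nothing to them. Of the 53 called higher 26 were also called without IH replicate 2, and of the 54 called lower 16.

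The differences at ZT0 were next set beside those of the neighbouring time points, which come from other mice. Of the 211 genes called higher in IH at ZT20, 11 were also called higher at ZT0, which is 5.21% of them, against 0.401% of all genes, and 20.8% of the 53 genes called higher at ZT0. They were Acly, Fdps, Lss, Chrna4, Tubb2a, Tubb2b, Ddx39, Hnrnpa0, Scand1, Utp14b and 4930413G21Rik. Of these, Acly, Scand1 and Utp14b were not called at ZT0 without IH replicate 2. The median ZT0 difference of the 211 was 0.08, or 0.11 without IH replicate 2, with 10 called higher in that fit. Of the 211, 1 was called lower at ZT0 (Tsacc), or 0.474%, against 0.409% of all genes. Their median was 0.01 without IH replicate 1. Of the 86 genes called lower at ZT20, 2 were called lower at ZT0 (Ccpg1os and Hist1h2bh), or 2.33%, against 0.409% of all genes. Another 1 was called higher (Cdc42ep5), or 1.16%, against 0.401% of all genes. The median of the 86 was -0.05, and 0.04 without IH replicate 1. Without IH replicate 2, Tsacc, Ccpg1os, Hist1h2bh and Cdc42ep5 were not called at ZT0.

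Of the 1200 genes called higher at ZT4, within the hypoxic window, 2 were called higher at ZT0 (Hnrnpa0 and Scand1), which is 0.167% of them, against 0.401% of all genes. Another 5 were called lower, or 0.417%, against 0.409% of all genes. The median difference of the 1200 at ZT0 was -0.05, and 0.02 without IH replicate 2. The 387 genes called lower at ZT4 had a median of 0.10 at ZT0, or 0.02 without IH replicate 2. Of them 0 were called lower at ZT0 and 4 higher (1.03%), against 0.409% and 0.401% of all genes. The 4 called higher were Tfrc, Tubb2a, Tubb2b and Cxadr, of which Cxadr was not called without IH replicate 2. Tubb2a, for example, differed by 0.55 at ZT0 and by -1.34 at ZT4. The position of ZT0 on the daily course was read from control livers of ZT20 and ZT4. The 482 genes higher in control at ZT4 than at ZT20 had a median IH difference of 0.04 at ZT0, and the 557 lower ones of -0.07. Among the former 0 genes were called. Among the latter 3 were called higher (0.539%) and 5 lower (0.898%), against 0.401% and 0.409% of all genes. Without IH replicate 2 the medians were 0.011 and -0.003.

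Whether a difference was particular to ZT0 was tested in 1 limma fit of all 36 libraries, as the ZT0 difference minus the mean difference at the other 5 time points. With Benjamini-Hochberg adjustment 0 genes (0%) passed 0.05, with a smallest adjusted p of 0.270, and 325 (2.46%) had an unadjusted P of 0.01 or less. Among the smallest P were those of Zfp563, Mettl8, Prickle4 and Mettl20. Mettl20, a mitochondrial lysine methyltransferase, was at 29.5, 20.9 and 25.4 FPKM in IH and at 11.1, 12.9 and 18.2 in control. Its difference was 0.81 at ZT0 and -0.34 on average at the others. For Lss the contrast was 0.40 (SE 0.24), for Fdps 0.44 (SE 0.37) and for Acly 0.10 (SE 0.26), so the lipid genes were not shown to be particular to ZT0.

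Markers of cell types were checked for the tissue and for the results above. In bulk liver, fewer cells of a type and less RNA per cell cannot be told apart. The 12 hepatocyte markers summed to 69002 to 70714 FPKM in IH and 61558 to 69316 in control, with 0 called and a median difference of 0.05. Kupffer cell markers (12 genes) summed to 69.6 to 132 FPKM in IH and 92.6 to 115 in control, sinusoidal endothelial markers (12) to 63.5 to 85.9 and 72.3 to 81.9, neutrophil and monocyte markers (8 tested) to 16.6 to 33.9 and 16.2 to 21.6, and 0 were called in each. IH replicate 2 was the highest library for the Kupffer and neutrophil lists, with S100a8 at 6.04 FPKM against 0.282 to 1.03 in the other 5. Lymphocyte markers (8 tested) summed to 1.38 to 3.41 FPKM in IH and 2.17 to 3.38 in control, cholangiocyte markers (8) to 42.9 to 75.1 and 42.7 to 60.0, and red cell markers (3) to 41.6 to 53.6 and 52.0 to 65.7, with 0 called. Markers of pancreas (10.1 to 25.7 and 13.0 to 20.7) and of muscle (at most 1.51 in any library) also held 0 called genes. With 0.81% of all genes called, marker lists this short could be expected to hold few or none. Prss1, Prss2 and Pnlip of pancreas and Myh4 and Ckm of muscle were listed at 0 in all 6 libraries.

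Of the 13 stellate cell and fibroblast genes, 5 had all IH livers above all control livers (Col1a1, Col1a2, Col3a1, Acta2 and Tagln), against 4.59% of all genes, and 0 were called. The list's median was 0.21, and between 0.08 (without control replicate 3) and 0.37 (without control replicate 1) on leaving out a library. With the spread taken from all 36 libraries 5 of the 13 were called, in a fit that called 2.16% of all genes against 0.81% in the main fit. Col3a1, a fibrillar collagen, was at 5.30, 6.91 and 6.79 FPKM in IH and at 4.07, 4.39 and 2.49 in control, a log2 difference of 0.68 (SE 0.19) with a P of 0.0101. Tagln, a contractile protein, was at 6.28 to 6.69 FPKM and 2.96 to 5.09 (P of 0.0107). The stellate cell genes Lrat, at 0.981 to 1.38 FPKM in IH and 1.21 to 1.99 in control, and Reln, at 1.71 to 3.03 and 1.94 to 2.57, overlapped, and the summed level of the list was 88.2 to 119 FPKM in IH and 73.6 to 119 in control. Fabp4, a fatty acid carrier of adipocytes, capillary endothelium and macrophages, was called higher, at 9.82, 13.3 and 12.7 FPKM in IH and at 7.43, 7.55 and 6.33 in control (log2 difference 0.67, SE 0.13). It made up most of the adipose list, which summed to 10.3 to 13.8 FPKM in IH and 6.70 to 8.04 in control, while Plin1, Lep and Retn were listed at 0 in all 6 libraries. The part of these cells in the lipid results was not tested.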

How the data were processed

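Liver RNA of 36 mice was sequenced as stranded poly-A libraries with paired reads. Per the labels, the authors aligned reads to mm10 with TopHat2 2.1.1, and they deposited FPKM values made with Cufflinks 2.2.1 as 1 table per condition, told apart by the table's name. The gene annotation they used is not given in the sources used here. Of 24346 symbols, the 280 on more than 1 row were left out. The limma test (version 3.58.1, R 4.3.3, intensity trend, two-sided) took log2(FPKM + 1) of the 13215 genes averaging 0.1 FPKM or more over the 36 libraries. A gene was called at an unadjusted P of 0.01, the study's own threshold, and Benjamini-Hochberg adjusted p-values are given beside it. FPKM holds no read totals, so no counting error is given, and relative depth came from the steps of values up to 0.2 FPKM. Replicate numbers were not taken to pair the libraries in the main fit. Genes named were the 12 smallest P in each direction with a mean of at least 1 FPKM, the 3 smallest P and every called gene of each list, clock genes, genes the study names, Saa1, Saa2 and the 5 smallest P of the contrast with other time points. A few genes that this rule or the lists would take in are not reported here and are left out of the list counts, but stay in the fit and in counts over all genes. Other genes, and members given as ranges, were chosen after their values were seen. The comparison, the members and the lists were chosen with earlier results of these data known. The fits were tested on simulated data. Alternatives were another pseudocount, filters, 3 scalings, sample weights, no trend, adjusted p-values, a shared spread, summed symbols, the replicate block and leaving out each library, and, chosen after seeing the data, removal of length and GC trends (GENCODE M21, 96.3% of genes matched). Plots came from matplotlib 3.10.9 under Python 3.11.15.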

Additional observations from a re-analysis of the deposited data

Results flagged for a closer look

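Of the 180 genes named, 18 (10%) had all 3 IH livers on one side of all 3 control livers at ZT0 and on the opposite side at ZT4, as did 299 of the 13215 genes tested (2.26%). Many of the 180 were named for a small P at ZT0, so nothing is read from the larger share. That criterion is no test of the difference between the time points, which was not tested for this pair. The ZT0 values are log2 differences of IH minus control.

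Higher at ZT0 and lower at ZT4 were Ikbke (0.846), a kinase of innate immune signalling, Mettl20 (0.814), Cd14 (0.687), the tubulins Tubb2a (0.547) and Tubb2b (0.492), Ddx39 (0.369), Tfrc (0.337) and Txnrd1 (0.135), thioredoxin reductase. For Cd14, the endotoxin co-receptor, the ZT0 value rested on IH replicate 2, with 4.55 FPKM against 0.672 in IH replicate 1 and 0.423 to 0.639 in control, and was 0.11 without it. For Ikbke it was 0.40 without that library.

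Lower at ZT0 and higher at ZT4 were Slc12a7 (-0.545), Prickle4 (-0.522), Hlf (-0.519), Ccdc85c (-0.462), Fam20b (-0.461), Rgs12 (-0.36), a regulator of G-protein signalling, the fructose transporter gene Slc2a5 (-0.32), Epm2a (-0.288), the glycogen phosphatase laforin, Dbp (-0.274) and Gpt2 (-0.196), an alanine aminotransferase. Dbp was at 0.109 FPKM in IH and 0.347 in control at ZT0 and at 25.5 and 3.73 at ZT4. Against the mean of all other time points, 0 of the 18 passed an adjusted p of 0.05 in limma.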

How the results depend on the processing

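The count of 107 called genes (53 higher, 54 lower) stayed within 1.5 times under another pseudocount, a mean of at least 1 FPKM, 3 scalings, no intensity trend, sample weights, summed symbols and removal of length and GC trends. It was 192 (101 and 91) with no filter on low values, where 18677 genes were tested, and 285 (138 and 147) with the spread taken from all 36 libraries, and 0 in each direction at an adjusted p under 0.05, a count that was 0 in both of those fits too. The cause was not tested. With the shared spread the smallest adjusted p was 0.0553. With FPKM rescaled to a common sum the split was 39 higher and 60 lower, a higher share of 39.4% against 49.5%. Leaving out 1 library gave 63 to 208 called genes, 33 to 118 higher and 25 to 127 lower. The extremes were 63 without control replicate 3, 205 without IH replicate 1 and 208 without IH replicate 3, and lower calls were 25 without control replicate 1 and 26 without IH replicate 2. For the ZT0 contrast with the other time points, the count of 0 genes at an adjusted p under 0.05 became 0 to 5 on leaving out a replicate (1 without IH replicate 1 and 5 without IH replicate 3), and 325 passed an unadjusted P of 0.01. Without IH replicate 2, 4 small RNAs passed an adjusted p of 0.05 (Snora15, Snord17, Mir8099-1 and Mir8099-2), and without control replicate 1 there was 1 gene.

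Same-numbered IH and control libraries had residuals that correlated by -0.09, 0.01 and -0.08. Differently numbered pairs ranged from -0.272 to 0.339. Residuals within a group of 3 sum to 0, so these values cannot show whether libraries share a batch or are paired. With a replicate block 128 genes were called (53 higher and 75 lower), 46 of them among the 107. For the 180 named genes, 3033 of 3215 values over the alternatives kept direction and side of the threshold, 124 lost the call, 58 gained it and 0 changed sign after being called. Depth limits low genes most, and 3 livers a group left a median SE of 0.107 on the log2 scale.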
